A study of Mus musculus with 8 samples.

Results

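Expression of 10 CXC chemokine ligand genes was examined in subcutaneous C26 colon carcinomas with and without a functional IL-6 gene. The 10 genes were taken by symbol from the 27179 genes of the series (Cxcl1, Cxcl2, Cxcl3, Cxcl5, Cxcl9, Cxcl10, Cxcl11, Cxcl12, Cxcl14 and Cxcl16), and each symbol was found in the table. The series holds RNA-seq of 8 tumors, 4 cxC26 scr (scr) and 4 cxC26 IL-6 KO s1 (KO), each number from 1 to 4 being a separate tumor. All were grown from the cachexia-inducing cxC26 line, a mouse colon carcinoma line implanted under the skin of adult male CD2F1 mice, and were taken after the mice had become cachectic, by the general rule at a body weight loss of over 15%. The cxC26 scr cells carried CRISPR/Cas9 with a scrambled guide RNA, and cxC26 IL-6 KO s1 was 1 subclone in which the IL-6 gene had been disrupted by CRISPR/Cas9. The host mice kept their own IL-6 gene, so host cells inside the tumor could still transcribe it. Where the study gives cell numbers for CD2F1 mice, more IL-6 KO s1 cells than scr cells were implanted and cachexia came later with them. The numbers for these 8 tumors are not stated, and the effects of genotype, clone, implanted cell number and tumor age cannot be told apart here. The labels give no age for the mouse of any tumor.

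CXC chemokines are small secreted proteins that steer leukocytes through G protein-coupled receptors. Members with an ELR motif before the paired cysteines (Cxcl1, Cxcl2, Cxcl3, Cxcl5) draw neutrophils through Cxcr2. Cxcl9, Cxcl10 and Cxcl11 are induced by interferons and draw activated T cells and NK cells through Cxcr3. Cxcl12 binds Cxcr4 and Ackr3 and retains leukocytes and stem cells in tissue, Cxcl14 is made constitutively by many epithelia and stroma, and Cxcl16 is a membrane-bound ligand of Cxcr6 that is released by shedding proteases. In tumors the ELR ligands are known for neutrophil recruitment and angiogenesis, and the Cxcr3 ligands for lymphocyte entry.

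Between 14158989 and 17048062 reads per tumor had been counted on genes (median 15384974), and the groups overlapped in depth. Il6, the targeted gene, was lower in the KO tumors, with 1496 reads over 4 scr tumors and 265 reads over 4 KO tumors (log2 fold change -2.45, limma adjusted p = 1.76e-06 with Benjamini-Hochberg adjustment). Of 5 epithelial markers Cdh1 and Krt18 passed the filter on low expression, and both were called higher in the KO tumors without overlap (2.75-fold, limma adjusted p = 0.00251, and 9.19-fold, limma adjusted p = 3.02e-06). The 5 summed to 2.79 to 4.70 CPM in the scr tumors and 14.2 to 26.4 CPM in the KO tumors, so this list moved with the ligands described below, and its part in their values was not tested. Epcam and Krt19, defining markers of epithelium, had 6 and 1 reads in all over the 4 scr tumors and 30 and 1 reads over the 4 KO tumors. Expression is given as log2 CPM, the log2 of read counts scaled to library size, and a log2 fold change is the mean of the KO tumors minus that of the scr tumors. A gene was called when its limma p-value, adjusted by the Benjamini-Hochberg method over all 13262 genes that reached 1 CPM in 4 or more of the 8 tumors, was under 0.05.

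The summed expression of the 10 ligands was higher in the KO tumors, at 263 to 552 CPM, than in the scr tumors, at 83.2 to 141 CPM. A few ligands weighed most in this sum. In the KO tumors Cxcl14 gave 29.6% to 61.4% of the ligand reads, Cxcl16 18.1% to 22.3% and Cxcl9 0.591% to 33.9%. Of the ligands, 8 passed the filter and 2, Cxcl2 and Cxcl3, did not. Cxcl9, Cxcl10, Cxcl11, Cxcl14 and Cxcl16 were called higher, which is 5 of 8 where 19.1% of all tested genes were called higher. Of the 8, 0 were called lower, where 20.7% of all tested genes were. The number of lower ligands was also 0 at an unadjusted limma p-value under 0.05 and with limma-voom weights, and Cxcl1 was the only tested ligand with a negative difference. Cxcl11 passed the filter only through the KO tumors. So did Cxcl9, which among the scr tumors reached 1 CPM in tumor 2 alone. The count of called ligands therefore favors those that were higher in the KO tumors. Without any filter all 10 ligands were tested, and 3 of 10 were called higher (Cxcl11, Cxcl14 and Cxcl16) where 7.77% of 27179 genes were. The median log2 fold change was 1.38 over the 8 tested ligands and -0.00289 over all tested genes.

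**Figure D1:**
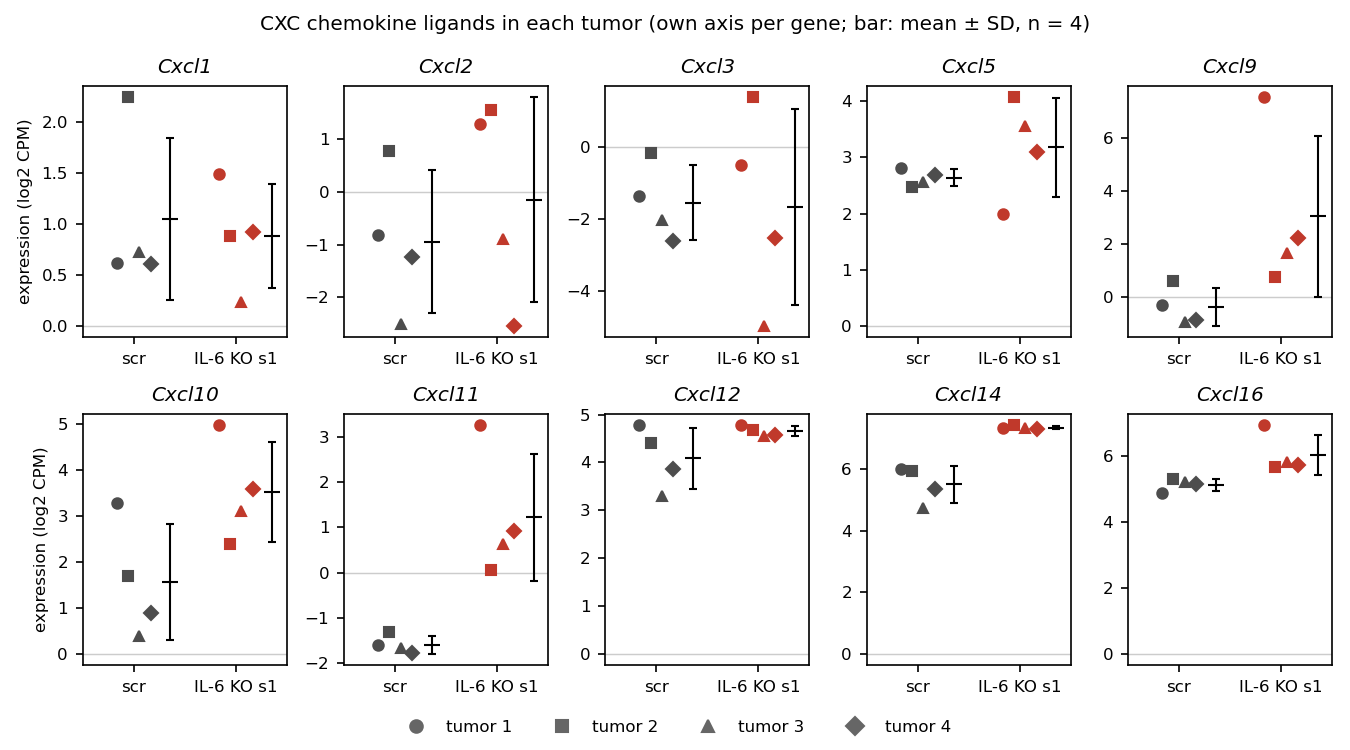
Expression (log2 CPM) of each ligand in every tumor, with a separate vertical axis per gene. Gray symbols are the 4 scr tumors, red symbols the 4 KO tumors, the symbol shape gives the tumor number, and bars are mean ± SD. Tumor 1 of the KO group stands above the rest for Cxcl9, Cxcl11 and Cxcl16, whereas its Cxcl14 (7.35) lies within the 7.29 to 7.43 of its group.

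For comparison between genes, levels were divided by the length of the longest transcript of each gene in the GENCODE M21 annotation and are given as CPM per kb. Which transcript was expressed was not examined, and the order below depends on these lengths. Cxcl14 was the most abundant ligand in both groups, at 26.4 ± 9.80 CPM per kb in the scr tumors and 89.5 ± 3.65 CPM per kb in the KO tumors (SD, n = 4 each). Cxcl16 was next in both, at 13.1 ± 1.63 and 26.3 ± 12.9 CPM per kb. In the scr tumors the order went on with Cxcl5, Cxcl12, Cxcl10, Cxcl1, Cxcl3, Cxcl2, Cxcl9 and Cxcl11, from 3.94 down to 0.0798 CPM per kb. Among neighbors in that order, the tumors' ranges were apart for Cxcl16 and Cxcl5, for Cxcl1 and Cxcl3, and for Cxcl9 and Cxcl11, and all other neighbors overlapped. In the KO tumors the order after Cxcl16 was Cxcl9, Cxcl10, Cxcl5, Cxcl12, Cxcl1, Cxcl11, Cxcl3 and Cxcl2. Here the ranges were apart only for Cxcl14 and Cxcl16 and for Cxcl12 and Cxcl1. The third place of Cxcl9 rested on tumor 1, since its level was 64.7 CPM per kb there and as low as 0.575 CPM per kb in another tumor of the group.

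**Figure D2:**
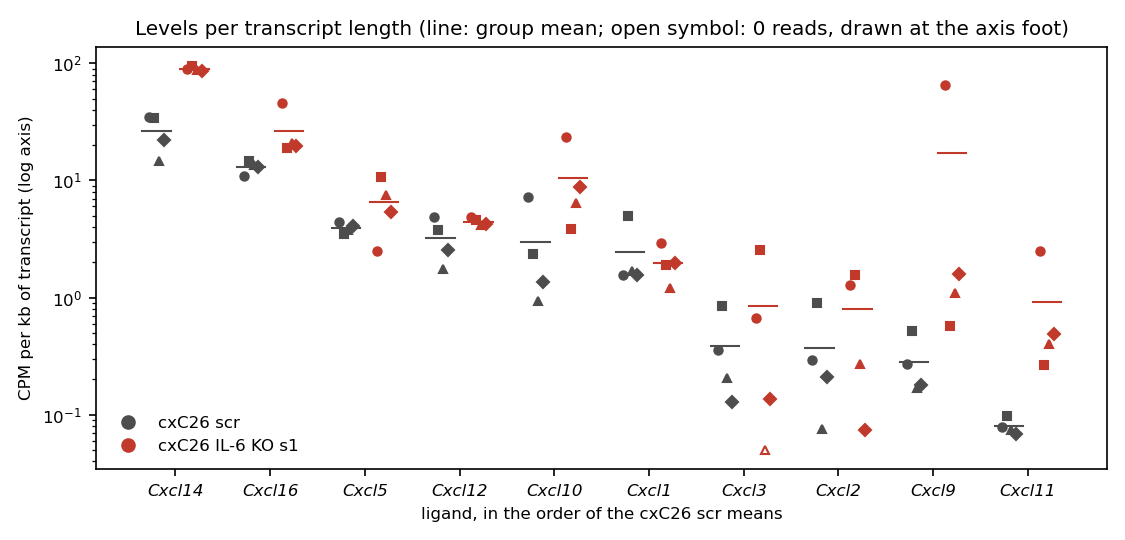
CPM per kb of transcript (log axis) for each ligand, ordered by the scr mean. Symbols are single tumors (gray, scr; red, KO), lines are group means, and the open triangle is the tumor with 0 Cxcl3 reads, drawn at the foot of the axis. Cxcl14 leads in both groups, at means of 26.4 and 89.5 CPM per kb, and Cxcl9 spreads from 0.575 to 64.7 CPM per kb among the KO tumors.

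The Cxcr3 ligands were low in the scr tumors and were higher in the KO tumors, 3.87-fold for Cxcl10, 7.01-fold for Cxcl11 and 10.7-fold for Cxcl9 by the means of log2 CPM, with a wide spread within the KO group. In a whole tumor, more cells of a type and more RNA per cell cannot be told apart, and this holds for each ligand below. Cxcl9 had 13, 24, 7 and 8 reads in the scr tumors 1 to 4, and 3038, 23, 50 and 67 reads in the KO tumors 1 to 4. Tumor 1 of the KO group was thus far above all others, and at the low end the lowest KO tumor (0.76 log2 CPM) was just above the highest scr tumor (0.60), so the groups did not overlap. Cxcl9 had a log2 fold change of 3.42 ± 1.14 (SE, 95% CI 0.93 to 5.92, limma adjusted p = 0.0325). Without KO tumor 1 it was 1.93 and still called, and without scr tumor 1, 3 or 4 it was no longer called (limma adjusted p = 0.0633, 0.0779 and 0.0760).

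Cxcl10 had 162, 52, 18 and 28 reads in the scr tumors and 512, 72, 136 and 173 reads in the KO tumors. The groups overlapped, since scr tumor 1 was above KO tumors 2 and 3. Cxcl10 rose by a log2 fold change of 1.95 ± 0.617 (SE, 95% CI 0.60 to 3.30, limma adjusted p = 0.0258), and the two-sided exact permutation test over the tumors gave p = 0.0857. The call was lost without KO tumor 1 or 4 (limma adjusted p = 0.0523 and 0.0501) and without scr tumor 2, 3 or 4 (limma adjusted p = 0.0502, 0.0788 and 0.0736).

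Cxcl11 had 5, 6, 4 and 4 reads in the scr tumors and 155, 14, 24 and 27 reads in the KO tumors. Every KO tumor was above every scr tumor, although 3 of them held only 14 to 27 reads. The log2 fold change of 2.81 ± 0.585 (SE, 95% CI 1.53 to 4.09, limma adjusted p = 0.00293) remained called with any 1 tumor left out, at 2.13 to 3.19. With a pseudocount of 1 CPM the log2 fold change of Cxcl11 was 1.43. Cxcl11 is annotated as a transcribed pseudogene in the reference strain's RefSeq record, and the table lists it with whole reads like any other gene.

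Groups without overlap were found for 4 of the 8 tested ligands (Cxcl9, Cxcl11, Cxcl14 and Cxcl16, all higher in KO), where 17.8% of all tested genes were without overlap in that direction. Each of these 4 gave p = 0.0286 in the two-sided exact permutation test, the smallest p that 4 against 4 tumors allow. Groups without overlap always give this p, so it adds nothing to their count. Cxcl9 and Cxcl11 had passed the filter only through the KO tumors, so this count too favors higher ligands. Within the KO group the ligands differed in how far tumor 1 stood from the others. Its log2 CPM minus the mean of tumors 2 to 4 was 5.99 for Cxcl9 (63.7-fold), 2.72 for Cxcl11, 1.95 for Cxcl10 and 1.20 for Cxcl16. For Cxcl14 the same difference was -0.000359, and for Cxcl5 it was -1.59. Tumor 1 therefore held the highest value of all 8 tumors for Cxcl9, Cxcl10, Cxcl11, Cxcl12 and Cxcl16, and the lowest for Cxcl5.

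**Figure D3:**
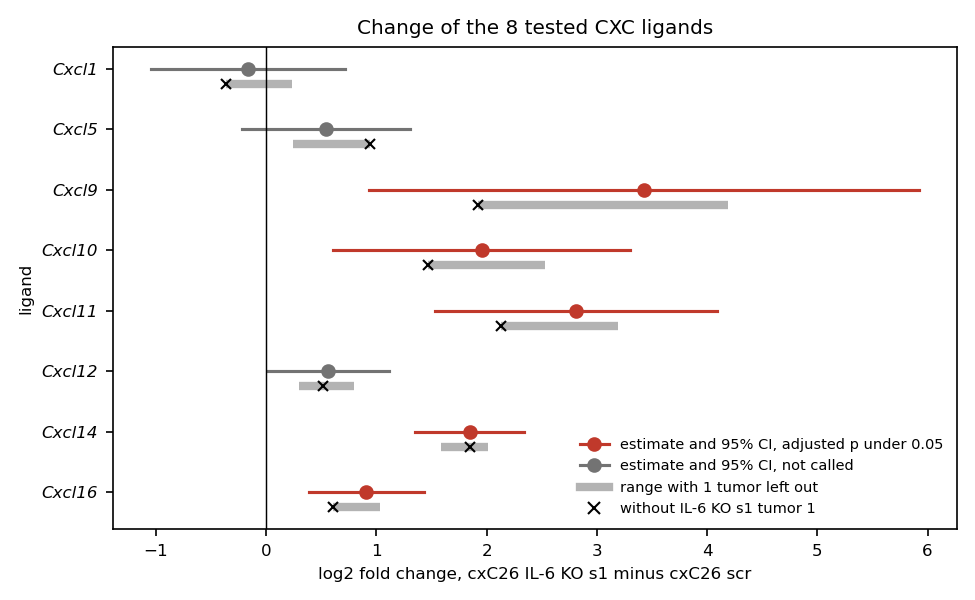
Log2 fold change (KO minus scr) of the 8 tested ligands with 95% CI, red where the limma adjusted p was under 0.05 and gray where it was not. Gray bars underneath give the range with each of the 8 tumors left out in turn and crosses the value without KO tumor 1. Cxcl14 has the narrowest interval (1.35 to 2.34) and Cxcl9 the widest (0.93 to 5.92), with its cross at 1.93.

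The genes of the interferon response moved with the Cxcr3 ligands. Of 16 interferon target genes, 15 passed the filter and 15 were called higher in the KO tumors, where 19.1% of all tested genes were. The tested ones had a median log2 fold change of 1.83. The 16 genes summed to between 105 and 171 CPM in the scr tumors. In KO tumors 2, 3, 4 and 1 they summed to 250, 319, 372 and 1331 CPM. The highest-expressed were Psmb8, an immunoproteasome subunit (log2 fold change 1.33, limma adjusted p = 0.0104), and Tap1, the peptide transporter of class I presentation (1.44, limma adjusted p = 0.00710). Tumor 1 of the KO group held the highest value for 10 of the 15 tested targets and tumor 4 for the other 5. Those 5 were Isg15, Ifit1, Ifit3, Rsad2 and Usp18.

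**Figure D4:**
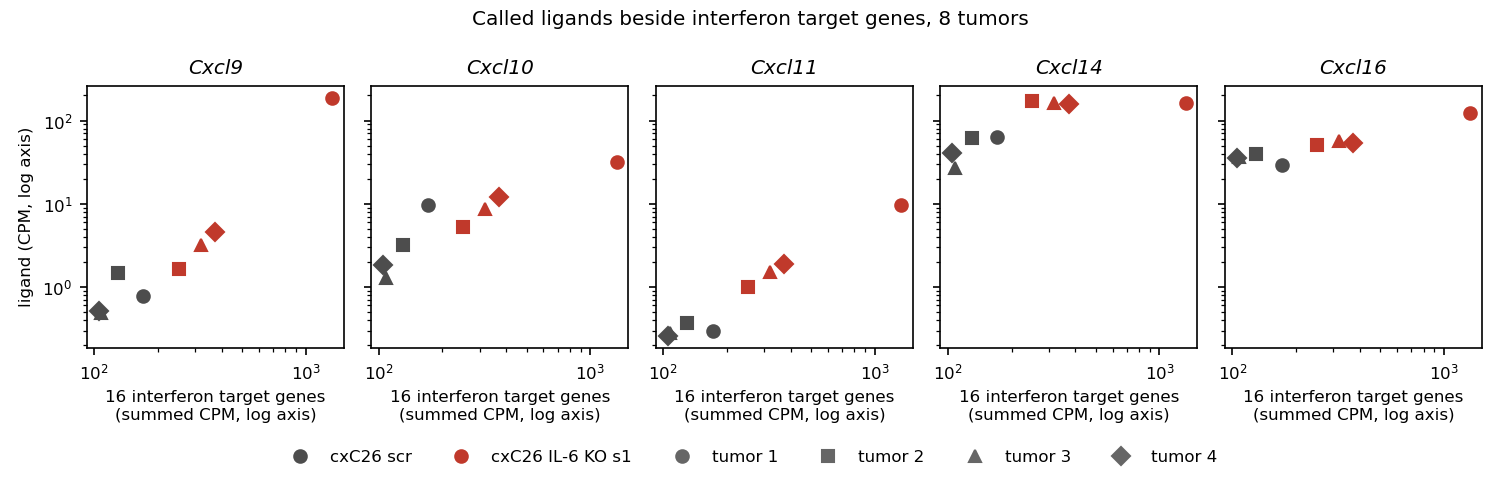
CPM of the 5 called ligands against the summed CPM of 16 interferon target genes in each tumor, both on log axes, with gray for scr, red for KO and the symbol shape for the tumor number. Cxcl9 and Cxcl11 are highest in KO tumor 1, which has 1331 CPM of interferon targets, while Cxcl14 is level among the KO tumors at 157 to 173 CPM.

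Upstream of these targets, 13 of 15 listed genes passed the filter. Of these 13, 7 were called higher and 0 lower, where 19.1% and 20.7% of all tested genes were. Ifng, the gene of interferon gamma, had 0 reads in each scr tumor and 33, 0, 1 and 2 reads in the KO tumors. Ifngr1, a chain of the interferon gamma receptor, was called higher by 0.75 (limma adjusted p = 0.000171), and Jak1, Jak2, Ifnar1 and Ifngr2 were not called, with log2 fold changes between -0.17 and 0.05.

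Markers of T cells, cytotoxic cells and macrophages were higher in the KO tumors, as the Cxcr3 ligands were, and those of dendritic cells were mixed. Macrophage markers were called higher for 6 of 6, where 19.1% of all tested genes were. T cell markers were called higher for 3 of 3 tested (6 listed) and CD8 and cytotoxic markers for 5 of 5 tested (6 listed), but 2 of these 3 (Cd3g and Cd2) and 3 of these 5 (Cd8a, Cd8b1 and Nkg7) were under 1 CPM in every scr tumor. They passed the filter only through the KO tumors, so that their direction was given by the filter. Summed CD8 and cytotoxic markers were 0.845 to 5.31 CPM in the scr tumors and 12.4 to 44.3 CPM in the KO tumors, and summed T cell markers were 1.38 to 3.09 and 7.15 to 13.5 CPM. The 3 NK cell markers did not pass the filter, and summed to 0.120 to 0.741 CPM and 0.828 to 6.40 CPM. In each of these lists KO tumor 1 had the highest sum, as it had for the Cxcr3 ligands, and no listed marker of them was at 0 in all tumors. Of 5 dendritic cell markers 2 were tested and both were called lower without overlap, Itgax by -1.89 (limma adjusted p = 0.00259) and Zbtb46 by -2.42 (limma adjusted p = 6.95e-06). The untested Flt3, Xcr1 and Clec9a had higher means in the KO tumors, Xcr1 without overlap. They had 29, 13 and 26 reads over the 4 scr tumors and 64, 42 and 37 reads over the 4 KO tumors. Summed dendritic cell markers, mostly Itgax, were 77.2 to 106 CPM in the scr tumors and 14.0 to 59.1 CPM in the KO tumors. None of the tested B cell (1 of 4 listed), endothelial (4 of 4) and platelet markers (2 of 3) was called by limma, also at an unadjusted p-value under 0.05, and their log2 fold changes lay between -0.11 and 0.40. Summed B cell markers were 1.02 to 2.11 CPM in the scr tumors and 2.02 to 8.55 CPM in the KO tumors. The pan-leukocyte gene Ptprc was higher by 1.03 (limma adjusted p = 0.00954). The part of these cells in the ligand values was not tested.

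The genes most alike in pattern over the 8 tumors were found by the root mean square difference of log2 CPM, each gene centered on its own mean. For Cxcl9 they were Iigp1 (0.686), Gbp2b (0.747) and Gbp2 (0.858), against a spread of 2.57 of Cxcl9 around its own mean. For Cxcl10 they were Oasl2 (0.433), Slfn1 (0.503) and Slc2a6 (0.541), and for Cxcl11 they were Gbp6 (0.302), AW112010 (0.374) and Psmb9 (0.389).

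The Cxcr3 ligand genes lie together on the minus strand of chromosome 5, within 42.0 kb (92321331 to 92363296, RefSeq on GRCm38.p6). The sequences upstream of Cxcl9 and Cxcl10 are shown since both genes were called higher and lie side by side. Each is the 250 bases before the RefSeq start site, 5′ to 3′ on the gene's strand, at chr5:92328080-92328329 for Cxcl9 and at chr5:92348890-92349139 for Cxcl10, and capitals mark the longest run of bases that both share and, in Cxcl10, an interferon-stimulated response element searched as GAAA, any 2 bases and GAAA.
Cxcl9: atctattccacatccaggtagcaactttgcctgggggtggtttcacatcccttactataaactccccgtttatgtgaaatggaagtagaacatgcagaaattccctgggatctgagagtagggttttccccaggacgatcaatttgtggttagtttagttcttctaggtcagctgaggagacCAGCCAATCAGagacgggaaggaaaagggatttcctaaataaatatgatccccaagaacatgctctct
Cxcl10: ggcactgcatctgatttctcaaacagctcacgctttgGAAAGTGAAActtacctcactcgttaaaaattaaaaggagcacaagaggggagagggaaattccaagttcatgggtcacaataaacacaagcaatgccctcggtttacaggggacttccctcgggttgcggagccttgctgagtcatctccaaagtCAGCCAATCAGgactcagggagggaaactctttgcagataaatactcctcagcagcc
The response element letters, searched on both strands, were present 213 to 204 bases before the Cxcl10 start and were not in this window of Cxcl9. They were found in 2.98% of 32851 promoters of the same length. Neither window held the letters of an interferon gamma-activated site, TTC, any 3 bases and GAA (both strands, 7.02% of promoters). The shared run, cagccaatcag, has 11 bases, begins 68 bases before the start of Cxcl9 and 57 bases before that of Cxcl10, includes the CCAAT letters and was found in 0.755% of promoters on either strand. Of the 10 ligands, 7 were matched in the RefSeq promoter set, and Cxcl5, Cxcl11 and Cxcl16 were not.

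Cxcl14 was the ligand with the smallest error of its change among the 8 tested. It had 64.1, 61.8, 26.6 and 40.6 CPM in the scr tumors 1 to 4, and 163, 173, 161 and 157 CPM in the KO tumors 1 to 4. The KO tumors were nearly equal and all lay above the scr tumors, which varied among themselves, with tumors 3 and 4 below tumors 1 and 2. Mean log2 CPM was 5.51 ± 0.596 against 7.35 ± 0.0583 (SD, n = 4 each). The difference gave a log2 fold change of 1.85 ± 0.225 (SE, 95% CI 1.35 to 2.34, limma adjusted p = 0.000107), or 3.59-fold, and it was called with any 1 tumor left out (1.59 to 2.01) and in each of the other 10 settings tried (1.82 to 1.89).

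The share of Cxcl14 in all reads of the 10 ligands was 31.9% to 45.5% in the scr tumors and 29.6% to 61.4% in the KO tumors. The lowest share in the KO group fell in tumor 1, where Cxcl9 alone took 33.9% of the ligand reads. Genes most alike in pattern to Cxcl14 were Samsn1 (root mean square difference 0.182 in log2 CPM), Ccl2, the monocyte chemoattractant of the CC family (0.214), and Raet1d (0.243). The 250 bases before the Cxcl14 start in the promoter set held the response element letters at 172 to 163 bases and the gamma-activated site letters at 191 to 183 bases before that start. This window, chr13:56296552-56296801 on the minus strand, lies inside the RefSeq gene record, which extends to 56296811.

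Cxcl16, made as a membrane-bound ligand by macrophages and dendritic cells among others, had a log2 fold change below those of the interferon-induced ligands, a difference that was not tested. It had 29.2, 39.6, 36.9 and 35.4 CPM in the scr tumors and 123, 50.9, 56.5 and 53.0 CPM in the KO tumors. All KO tumors were above all scr tumors, with tumor 1 apart from the other 3 of its group. The log2 fold change was 0.91 ± 0.239 (SE, 95% CI 0.39 to 1.43, limma adjusted p = 0.0107), or 1.88-fold, and it was 0.61 and still called without KO tumor 1. The genes most alike in pattern were C1qa (root mean square difference 0.129 in log2 CPM), H2-DMa (0.135) and Msr1 (0.138). C1qa, a complement gene of macrophages, belongs to the macrophage markers, which summed to 394 to 562 CPM in the scr tumors and 798 to 1184 CPM in the KO tumors, highest in tumor 1. The sum of the dendritic cell markers, mostly Itgax, went the other way, as given above. Among the KO tumors it too was highest, 59.1 CPM, in tumor 1. The part of either list in the Cxcl16 values was not tested.

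Exons of Cxcl16 share 552 bases with Zmynd15 on the opposite strand, and exons of Cxcl10 share 133 bases with Art3. Cxcl11, with its low read counts, shares the most, 1582 exonic bases with Gm2673 on the opposite strand, a gene that was not analysed here. The strand setting of the counting is not given in the sources used here, so reads in the shared bases cannot be assigned. Zmynd15 had 79 to 493 reads per tumor and was itself higher (log2 fold change 1.18, limma adjusted p = 0.0154), whereas Art3 had 11 to 39 reads per tumor and a log2 fold change of 0.48 (limma adjusted p = 0.359).

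Cxcl12, the stromal ligand, did not pass the threshold. It had 27.4, 21.2, 9.84 and 14.4 CPM in the scr tumors and 27.4, 25.6, 23.4 and 23.9 CPM in the KO tumors. The KO tumors were close together, and scr tumor 1 was above 3 of them, so the groups overlapped. Its log2 fold change was 0.56 ± 0.252 (SE, 95% CI 0.01 to 1.11, limma adjusted p = 0.0968). Without scr tumor 1 it was 0.79 and called (limma adjusted p = 0.0161), and without scr tumor 3 it was 0.30 (limma adjusted p = 0.254). In both Cxcl12 and Cxcl14 the scr tumors fell in the same order, highest in tumor 1 and lowest in tumor 3. Of 6 fibroblast markers, 3 were called lower and 1, Lum, higher, where 20.7% and 19.1% of all tested genes were. The 6 markers summed to 7184 CPM in the mean of the scr tumors and 5333 CPM in that of the KO tumors. Their part in the Cxcl12 values was not tested.

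The ELR ligands, which draw neutrophils, summed to 7.87 to 12.7 CPM in the scr tumors and 9.79 to 24.0 CPM in the KO tumors, and none was called. Cxcl5 was the most abundant of them, with 117, 89, 84 and 99 reads in the scr tumors and 64, 232, 186 and 123 reads in the KO tumors. Tumors 2, 3 and 4 of the KO group were above every scr tumor and tumor 1 was below them all. The log2 fold change of Cxcl5 was 0.54 ± 0.348 (SE, 95% CI -0.22 to 1.30, limma adjusted p = 0.237), and without KO tumor 1 it was 0.94 and called (limma adjusted p = 0.00496). Without KO tumor 2, the highest, it was 0.25 (limma adjusted p = 0.571).

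Cxcl1 had 25, 76, 23 and 23 reads in the scr tumors and 45, 25, 18 and 27 reads in the KO tumors. Scr tumor 2 was the highest of all 8, and the others overlapped. The log2 fold change was -0.17 ± 0.401 (SE, 95% CI -1.04 to 0.71, limma adjusted p = 0.769), an interval that runs from 0.485-fold to 1.64-fold, and without scr tumor 2 the value was 0.23.

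Cxcl2 had 9, 27, 2 and 6 reads in the scr tumors and 39, 40, 8 and 2 reads in the KO tumors. Cxcl3 had 6, 14, 3 and 2 reads in the scr tumors and 11, 36, 0 and 2 reads in the KO tumors, where a count of 0 allows up to 3 reads. In both genes scr tumor 2 was the highest scr tumor and KO tumor 2 the highest of all, and the groups overlapped widely. When all genes were tested without a filter, Cxcl2 had a log2 fold change of 0.80 (limma adjusted p = 0.659) and Cxcl3 one of -0.11 (limma adjusted p = 0.952), so no change was detectable at this depth.

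Scr tumor 2, in which Cxcl1, Cxcl2 and Cxcl3 were highest within the scr group, also had the highest summed neutrophil markers of that group, 22.3 CPM where the other scr tumors had 11.2 to 14.6 CPM. The KO group did not show the same match. These markers summed to 29.1, 18.8, 17.6 and 15.9 CPM in KO tumors 1 to 4, whereas Cxcl2, Cxcl3 and Cxcl5 were highest in tumor 2, Cxcl1 was highest in tumor 1 and Cxcl5 was lowest there. Of the 6 neutrophil markers 4 were tested, S100a8 being called higher (0.97, limma adjusted p = 0.00282) and Mmp8 lower (-1.34, limma adjusted p = 0.0361), and Ly6g, a defining marker, had 0 reads in every scr tumor and 3 reads over the 4 KO tumors. Their part in the ELR ligand values was not tested. By pattern, Arg2 (root mean square difference 0.291 in log2 CPM) and Il1r2 (0.298) were near to Cxcl1 together with a locus that has no symbol, and Morn2 (0.278), Gm5093 (0.292) and Jag2 (0.299) to Cxcl5.

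The upstream sequences of Cxcl1, Cxcl2 and Cxcl3 are shown because the longest run of bases that all of them share, in capitals, has the letters of a well-known NF-kB site. Each is the 250 bases before the RefSeq start site on the plus strand of GRCm38.p6, at chr5:90890995-90891244 for Cxcl1, chr5:90903649-90903898 for Cxcl2 and chr5:90785851-90786100 for Cxcl3.
Cxcl1: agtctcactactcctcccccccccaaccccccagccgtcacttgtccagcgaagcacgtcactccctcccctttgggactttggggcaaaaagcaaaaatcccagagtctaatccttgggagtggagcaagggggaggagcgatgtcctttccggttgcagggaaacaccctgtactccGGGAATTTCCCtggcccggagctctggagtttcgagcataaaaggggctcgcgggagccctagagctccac
Cxcl2: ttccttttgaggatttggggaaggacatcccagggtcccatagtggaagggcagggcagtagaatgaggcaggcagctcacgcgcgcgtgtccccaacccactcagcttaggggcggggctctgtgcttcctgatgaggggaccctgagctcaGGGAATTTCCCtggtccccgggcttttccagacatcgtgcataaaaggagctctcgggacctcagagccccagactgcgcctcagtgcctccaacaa
Cxcl3: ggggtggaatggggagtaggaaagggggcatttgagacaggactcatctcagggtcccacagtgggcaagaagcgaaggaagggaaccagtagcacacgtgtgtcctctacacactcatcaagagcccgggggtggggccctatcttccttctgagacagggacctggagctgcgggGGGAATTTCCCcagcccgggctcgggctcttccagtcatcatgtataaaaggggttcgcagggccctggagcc
The run is gggaatttccc, of 11 bases, and searched on both strands it was found in 0.0426% of 32851 promoters of this length, 14 in number. It lay 71 to 61 bases before the start of Cxcl1, 97 to 87 bases before that of Cxcl2 and 73 to 63 bases before that of Cxcl3. This exact run was absent from the windows of Cxcl9, Cxcl10, Cxcl12 and Cxcl14. Other forms of an NF-kB site were not searched, so its absence does not show that these windows lack one. Cxcl1 and Cxcl2 shared 14 bases, gggaatttccctgg. These letters were read from the ligands' own sequences, so their presence in each of them was given by the choice.

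A list of 17 held genes in or upstream of the NF-kB pathway, which drives ELR ligand transcription, and the C/EBP factors Cebpb and Cebpd. Of the 17, 14 were tested. Of these, 4 were called higher and 1 lower, where 19.1% and 20.7% of all tested genes were. Il1r1, the receptor of interleukin 1, was the lower one, with a log2 fold change of -1.43 (limma adjusted p = 2.49e-06). Tnf was higher by 1.55 (limma adjusted p = 0.000988). Il1r1 was also among the 5 genes of the list with the highest mean expression, and the other 4 of them, Cebpd, Cebpb, Nfkb1 and Rela, were not called, with log2 fold changes of 0.27, -0.11, 0.08 and 0.27.

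The ELR ligand genes occupy 147 kb of chromosome 5 (90759298 to 90905938, RefSeq on GRCm38.p6), and 1415 kb separate them from the Cxcr3 ligands. Around both clusters the other genes were mostly lower in the KO tumors. Of 37 other tested genes within 5 Mb of the middle of the ligand region, 27 had a negative log2 fold change. Over all 13262 tested genes, 6669 did. Of the 37, 18 were called lower and 4 higher, where 20.7% and 19.1% of all tested genes were. The median of the 37 was -0.35 where all tested genes had -0.00289. Cxcl9, Cxcl10 and Cxcl11 stood above this local median, and Cxcl1 and Cxcl5 lay above it as well. Once the median around them was subtracted, Cxcl1 was at 0.21 and Cxcl5 at 0.91, and neither was called. After subtraction of local medians the number of ligands called higher was again 5. Cxcl12, Cxcl14 and Cxcl16 lie on chromosomes 6, 13 and 11.

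**Figure D5:**
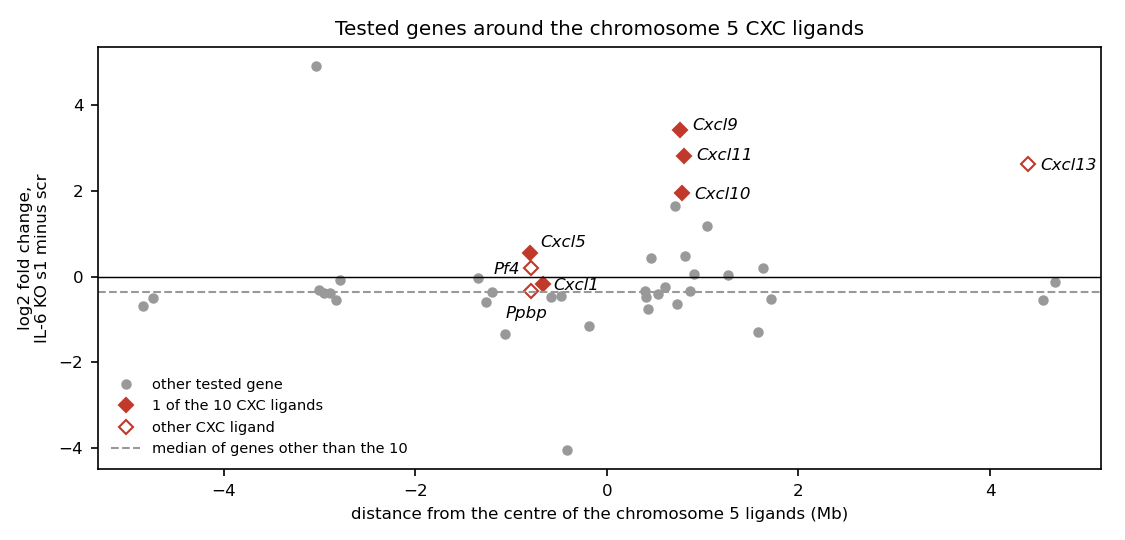
Log2 fold change of tested genes against their distance in Mb from the middle of the chromosome 5 ligands, with filled diamonds for the described ligands, open diamonds for other CXC ligands and gray points for other genes. The dashed line is the median of -0.35 of the 37 other genes, and Cxcl9, Cxcl10 and Cxcl11 lie above it at 3.42, 1.95 and 2.81.

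Among the receptors of these ligands, 4 of 10 listed passed the filter. Of these 4, 3 were called higher and 0 lower, where 19.1% and 20.7% of all tested genes were. Cxcr6 and Ackr2, 2 of these 3, were under 1 CPM in every scr tumor and passed the filter only through the KO tumors, so the count favors higher receptors. Cxcr6, the receptor of Cxcl16 on T cells, had 5, 3, 3 and 0 reads in the scr tumors and 37, 45, 64 and 81 reads in the KO tumors (log2 fold change 4.56, limma adjusted p = 0.000314), so its groups did not overlap. The order of the KO tumors was not that of its ligand, which was highest in tumor 1. Cxcr3 was below the filter, with 1, 5, 1 and 3 reads in the scr tumors and 8, 12, 12 and 15 reads in the KO tumors. Here too the groups did not overlap, and tumor 1, the highest for Cxcl9, Cxcl10 and Cxcl11, was the lowest of its group.

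Of the Cxcl12 receptors, only 1 of the pair was called. Ackr3, a scavenging receptor of Cxcl12 and Cxcl11, was higher by 0.77 (95% CI 0.53 to 1.02, limma adjusted p = 0.000289), and Cxcr4 was not called (0.36, 95% CI -0.26 to 0.98, limma adjusted p = 0.335). Ackr2, a scavenger mainly of CC chemokines, was higher by 2.43 (limma adjusted p = 0.000307). Cxcr2, the receptor of the ELR ligands, had 45 reads over the 4 scr tumors and 37 over the 4 KO tumors. Of the enzymes that release or trim these ligands, Adam10, a sheddase of Cxcl16, was higher by 0.51 (limma adjusted p = 0.00140), and Adam17 and Dpp4, which trims Cxcr3 ligands, were not called (-0.03 and 0.23).

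Of 5 other CXC ligands in the table, 3 were tested and 1 was called. Cxcl13, which draws B cells through Cxcr5, had 47, 47, 51 and 78 reads in the scr tumors and 510, 61, 712 and 518 reads in the KO tumors (log2 fold change 2.63, limma adjusted p = 0.00431). Its high tumors were KO tumors 1, 3 and 4, and KO tumor 2 fell below scr tumor 4. The platelet chemokines Pf4 and Ppbp were not called (0.20 and -0.33).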

How the data were processed

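RNA-seq of 8 tumors was analysed, grouped by their titles. That each tumor came from its own mouse is not stated within a group, and p-values measure the spread between these tumors. Per the study's methods, the authors used Trimmomatic for trimming of the 150 bp read pairs, Hisat2 for alignment to mm10, featureCounts for counting per gene and limma-voom for normalization. Their versions, and the annotation and strand option used in counting, are not given in the sources used here. The values the authors deposited are log2 CPM with 0.5 reads added to each count and 1 read to the effective library size. Read counts were recovered from the lowest value of each tumor, and all came out whole within 0.05.

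The test was limma 3.58.1 in R 4.3.3 (lmFit, eBayes with trend, no covariate) on the deposited log2 CPM of the 13262 genes that reached 1 CPM in 4 or more tumors, with Benjamini-Hochberg adjustment over all of them. Low counts limit Cxcl1, Cxcl2, Cxcl3 and Cxcl11 most. Each ligand also had a two-sided exact permutation test over the 70 possible splits of the tumors. Tested on simulated data drawn for this comparison, the fit recovered 197 of 197 genes changed by 2 on the log2 scale and 143 of 198 changed by 1. Of the 206 and 149 genes called, 9 and 6 had not been changed. The simulation gave every gene in both groups the same dispersion. It therefore does not describe recovery for ligands that spread widely, such as Cxcl9 with an SD of 3.06 log2 CPM among the KO tumors. Of the 13262 tested genes, 13001 were matched to RefSeq (GRCm38.p6). Promoters came from RefSeq and transcript lengths from GENCODE M21.

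The ligands and gene lists were chosen with earlier results of these data known. Every ligand is named, and up to 5 genes of each list by highest mean expression, with any called in the minority direction. The 3 genes most like each tested ligand that spans at least 2 log2 CPM are also named. Ifng, Tnf, Cxcr2, Cxcr3, Cxcr6, the markers under 1 CPM in every scr tumor and the 5 interferon targets highest in tumor 4 were named after their values were seen. Some listed genes are not reported here. Alternatives were no filter, a filter at a mean of 3 log2 CPM, quantile normalization, re-centering, total reads as library size, a pseudocount of 1 CPM, no variance trend, limma-voom weights, the replicate number as a block, subtraction of local medians, a 2-fold threshold and each tumor left out in turn. Leaving out both tumors numbered 1 was added after the data had been seen.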

Additional observations from a re-analysis of the deposited data

Results flagged for a closer look

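Each group of 4 tumors was searched for a single tumor apart from the others (by Dixon's 95% criterion on the gap over the range) for each of the 10 ligands, which is 20 groups, and about 1 of these is given by chance. There were 2. Cxcl1 was at 2.24 log2 CPM in cxC26 scr tumor 2, where the other 3 scr tumors lay between 0.61 and 0.72. Cxcl16 was at 6.94 log2 CPM in cxC26 IL-6 KO s1 tumor 1, where the other 3 tumors of its group lay between 5.67 and 5.82.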

How the results depend on the processing

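Against 5 ligands called higher as reported, 3 were called without a filter, 2 of 3 tested with a filter at a mean of 3 log2 CPM, and 3 without a variance trend. With 1 tumor left out the count was 3 to 5, being 3 without scr tumor 3 or without scr tumor 4, and without both tumors numbered 1, chosen after seeing the data, it was 7, with Cxcl5 and Cxcl12 gained. Cxcl9 was no longer called without a filter, with a pseudocount of 1 CPM, without a trend or with limma-voom weights (limma adjusted p = 0.123, 0.0675, 0.0708 and 0.175), and Cxcl10 without a filter or a trend (limma adjusted p = 0.100 and 0.0578). Over the settings other than leaving out tumors, adjusted p of Cxcl9 ran from 0.0212 to 0.175 and that of Cxcl10 from 0.00264 to 0.100. The cause was not tested. Cxcl16 fell short of a 2-fold threshold. Cxcl1 ran from -0.51 to 0.23 with tumors left out, and changed sign without scr tumor 2 (0.23), without IL-6 KO s1 tumor 3 (0.05) and with local medians subtracted (0.21). In all, 134 of the values kept their direction and side of the threshold, 15 lost the call, 5 gained it and 3 changed sign. The deviations of same-numbered tumors correlated at -0.06, 0.06, 0.02 and -0.06, so the numbers did not pair them. With the replicate number as a block 6 ligands were called, Cxcl12 being gained (0.56, limma adjusted p = 0.0482). Between 14158989 and 17048062 reads per tumor left Cxcl2 and Cxcl3 at 0 to 40 reads, where only large changes could be called.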
